A study of Mus musculus with 9 samples.

Results

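The 39 Hox genes of the 4 mouse clusters were described here in sorted bone marrow stem and progenitor cells. They were the rows of the deposited table of 38215 genes whose symbol is Hoxa, Hoxb, Hoxc or Hoxd followed by a number, which gave 11 HoxA, 10 HoxB, 9 HoxC and 9 HoxD genes. The antisense rows Hoxb3os and Hoxa11as were left out. Messenger RNA was sequenced from LSK cells, the lineage-negative, Sca1-positive, Kit-positive fraction of the marrow that holds haematopoietic stem cells and early multipotent progenitors. All 9 libraries came from C57BL/6J bone marrow treated with tamoxifen, sorted at a terminal time point for GFP and mCherry, and all carried Jak2V617F, the activating kinase mutation of myeloproliferative neoplasms. In 5 libraries the genotype was Jak2V617F alone, with EV in the title (EV mice 1 to 5), and in 4 it was Jak2V617F-sgZrsr2 (sgZrsr2 mice 1, 2, 3 and 5). Zrsr2 is a protein of the minor spliceosome that recognizes the 3′ splice site, and the design sets its loss against Jak2V617F alone. The labels spell out neither EV nor sg, give no age, do not say which cassette carries GFP or mCherry or which promoter drives Cre, and hold no group without Jak2V617F. Samples are numbered by m and a digit, taken here as mice. Nothing else says that they are separate animals, so p-values measure the spread between these samples. In sorted bulk RNA a lower value can come from fewer cells of a type or from less RNA per cell, and these cannot be told apart.

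Hox genes encode transcription factors that bind DNA through a conserved homeodomain and set position along the body axis. They lie in clusters that arose by duplication, so that genes with the same number in different clusters are paralogs, and within a cluster low numbers lie at one end (anterior) and high numbers at the other (posterior). Blood stem and progenitor cells express mainly HoxA and HoxB genes, which are turned down as cells mature. Hoxa9 acts with the cofactor Meis1 and is a driver of several leukaemias, Hoxb4 can expand stem cells in culture, and the clusters are held active by trithorax (Mll) complexes and silent by Polycomb complexes.

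The libraries held 23238264 to 45585531 expected counts and between 16169 and 19411 detected genes. All 8 LSK markers were detected in the series, and their summed level was 1355 to 1899 counts per 1000000 counts of the library (CPM) in EV and 1509 to 1924 CPM in sgZrsr2. Here and below CPM is scaled by TMM factors, which correct for differences in library composition. Zrsr2, the targeted gene, was at 53.4 ± 4.94 CPM (SD, n = 5) in EV and 38.9 ± 5.30 CPM (SD, n = 4) in sgZrsr2, with every sgZrsr2 library below every EV library, and edgeR gave a log2 fold change of -0.46 (SE 0.12) at an adjusted p of 0.714. EV mouse 5 and sgZrsr2 mice 3 and 5 stood apart: Car1, an erythroid carbonic anhydrase, was at 25.4, 39.3 and 35.5 CPM there against at most 0.422 CPM in the other 6, and Vwf, a megakaryocyte and stem cell gene, at 53.2, 91.1 and 85.3 CPM against at most 11.4 CPM. The 10 megakaryocyte and erythroid markers summed to 140 to 351 CPM in EV and 262 to 548 CPM in sgZrsr2, and none was at 0 in all libraries. The 6 mature neutrophil markers summed to 5.57 to 158 CPM in EV and 6.80 to 188 CPM in sgZrsr2, highest in EV mouse 5 and sgZrsr2 mouse 3, while their defining marker Ly6g was at no more than 0.0556 CPM. The 6 lymphoid markers summed to 91.8 to 327 CPM in EV and 58.3 to 235 CPM in sgZrsr2, with the T cell marker Cd3e at no more than 0.0873 CPM. Most of this was Dntt, at 82.6 to 281 CPM in EV and 51.0 to 200 CPM in sgZrsr2. The 6 endothelial markers summed to 120.0 to 173 CPM in EV and 129 to 189 CPM in sgZrsr2. Most of this was Pecam1, at 104 to 155 CPM over all libraries. Tek reached 18.7 CPM, and Cdh5, Kdr, Emcn and Plvap no more than 5.93 CPM. The 8 stromal markers summed to no more than 2.68 CPM. The part of these cell types in the Hox values was not tested. The nearest pair of libraries, sgZrsr2 mice 1 and 2, differed by more than counting noise (chi-square per degree of freedom 9.56 over 14063 genes), as repeat libraries of 1 sample amplified by PCR can too. They were kept as 2 samples as the labels give them, and were averaged in an alternative.

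The homeobox is the most alike stretch of the paralogs, and reads that fall in it could in principle be divided between genes. The 180 coding bases of the homeobox were compared between all members (GENCODE M21 transcripts, GRCm38). Over all 42 pairs within a paralog group the median identity was 80.6% (range 67.2% to 93.9%) and the longest identical run was 47 bases. Over the 699 pairs from different groups the median was 60.6% and the longest identical run 52 bases, between Hoxa6 and Hoxb4. Hoxa4, Hoxa5, Hoxa6, Hoxa10, Hoxb4, Hoxb5, Hoxb6 and Hoxb9 had whole-number expected counts in 9 of 9 libraries. No fraction of a read was assigned to these genes. Hoxa3 and Hoxb3 had fractional counts in every library, Hoxa2, Hoxa7 and Hoxb2 were whole in 1 library and Hoxa9 in 6.

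The clusters differed widely in level. HoxA held 82.9% of all Hox counts over the 9 libraries, HoxB 16.7%, HoxC 0.413% and HoxD none. All Hox genes together took between 0.0188% and 0.0269% of a library's counts. The cluster sum of HoxA was 185, 161, 194, 181 and 154 CPM for EV mice 1 to 5. In sgZrsr2 mice 1, 2, 3 and 5 the sums were 201, 201, 199 and 143 CPM, so the groups overlapped, with the lowest sum in sgZrsr2 mouse 5. HoxB was at 34.7, 33.4, 21.2, 35.4 and 36.4 CPM in EV and 28.9, 41.2, 50.6 and 36.6 CPM in sgZrsr2, lowest in EV mouse 3 and highest in sgZrsr2 mouse 3, again with overlap. HoxC was at 4.41 CPM in EV mouse 1 and at no more than 0.906 CPM in any other library. The HoxD cluster (GRCm38, chr2:74668310-74765143) had 0 counts for all 9 of its genes in all 9 libraries. A count of 0 allows up to 0.0658 to 0.129 CPM per library and up to 0.00952 CPM over the 9 libraries together, by the rule of 3 counts and for counting error only.

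**Figure D1:**
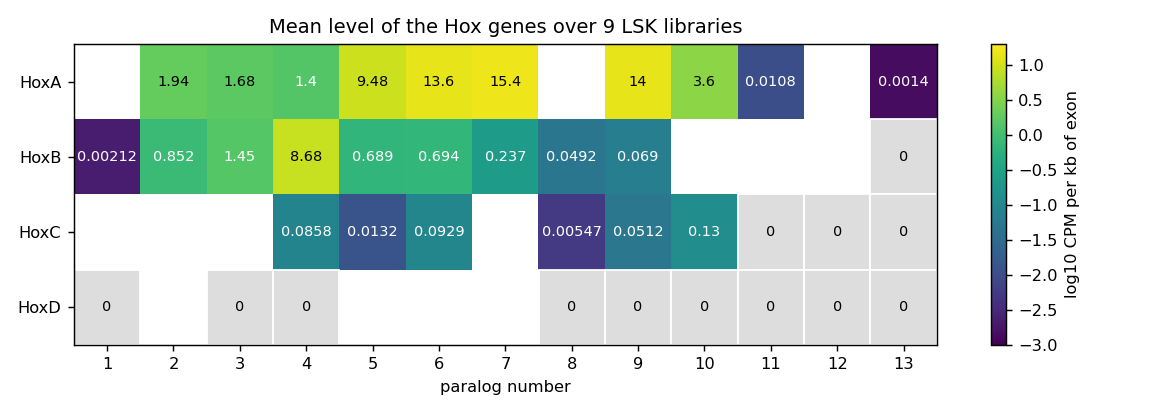
Level of every Hox gene by cluster (rows) and paralog number (columns), as the mean over 9 libraries of CPM per kilobase of exon, printed in each cell and coloured on a log10 scale, with genes at 0 in grey and white where no gene or no value is shown. The high levels lie at Hoxa5, Hoxa6, Hoxa7, Hoxa9 and Hoxb4, and the 9 HoxD genes are at 0.

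Promoters of 3 members are printed because they stand for the range of levels: Hoxa9 with the most counts, Hoxb4 with the highest HoxB level per kilobase, and Hoxd4, a paralog of Hoxb4 at 0 in all libraries. Each is the 250 bases before an annotated start in RefSeq (GRCm38.p6), given 5′ to 3′ on the gene's strand, with CG dinucleotides in capitals. The Hoxa9 and Hoxb4 windows lie inside the spans of these genes in the deposited table, so they precede an internal start. Hoxa9 lies at chr6:52227371-52227620 on the minus strand, Hoxb4 at chr11:96318017-96318266 on the plus strand and Hoxd4 at chr2:74721728-74721977 on the plus strand.
Hoxa9 promoter: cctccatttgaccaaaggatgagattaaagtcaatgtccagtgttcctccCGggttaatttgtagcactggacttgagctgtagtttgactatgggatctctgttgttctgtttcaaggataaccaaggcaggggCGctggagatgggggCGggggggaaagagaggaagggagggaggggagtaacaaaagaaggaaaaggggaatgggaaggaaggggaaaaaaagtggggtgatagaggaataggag
Hoxb4 promoter: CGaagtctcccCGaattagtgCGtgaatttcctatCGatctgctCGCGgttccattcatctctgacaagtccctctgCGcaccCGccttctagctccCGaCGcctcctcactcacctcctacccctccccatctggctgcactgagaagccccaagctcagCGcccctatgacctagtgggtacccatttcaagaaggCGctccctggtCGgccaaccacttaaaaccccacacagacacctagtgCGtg
Hoxd4 promoter: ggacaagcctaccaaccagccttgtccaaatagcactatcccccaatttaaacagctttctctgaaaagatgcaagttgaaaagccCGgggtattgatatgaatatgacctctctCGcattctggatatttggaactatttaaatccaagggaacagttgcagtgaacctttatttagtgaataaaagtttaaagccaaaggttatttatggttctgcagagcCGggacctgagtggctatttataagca
The windows held 3 CG dinucleotides at Hoxa9, 14 at Hoxb4 and 3 at Hoxd4. A window was found for 22 of the 39 genes (24 windows), with a median of 12.5 CG dinucleotides against 6 over all 32851 windows of the table. CCAAT was found on either strand in 14 of the 24 (58.3%) against 33.9% of all windows, and in 7 of 10 HoxD and 5 of 10 HoxA windows. TATAAA was in 4 (16.7%) against 12.4%, TGATTNAT, a Pbx and Hox type motif, in 2 (8.33%) against 2.83%, and TGACAG, a Meis type motif, in 2 (8.33%) against 15.9%. No motif searched contains another. The median was 12.5 CG dinucleotides in the windows of HoxD, which had no counts, and 15.5 in those of HoxA.

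Per kilobase of exon, the scale on which genes can be compared, the levels peaked in the middle of the HoxA cluster (GRCm38, chr6:52155367-52260880). Hoxa7 had a mean over the 9 libraries of 15.4 CPM per kb (range 13.2 to 17.4), Hoxa9 of 14.04 (11.1 to 17.4) and Hoxa6 of 13.6 (9.49 to 19.0). The order of these 3 was not fixed: Hoxa7 was highest in 5 libraries, Hoxa6 in 2 and Hoxa9 in 2, and their ranges overlapped. They were the first 3 in all 9 libraries, and with Hoxa5 and Hoxb4 they made the first 5 in all 9. Hoxa5 had a mean of 9.48 CPM per kb (5.94 to 12.8) and Hoxb4 of 8.68 (5.49 to 12.3), which overlap each other too. Hoxa10 followed at 3.60 CPM per kb (2.29 to 5.18). Next came Hoxa2 at 1.94, Hoxa3 at 1.68, Hoxb3 at 1.45 and Hoxa4 at 1.40 CPM per kb, whose ranges overlap. With the length of the coding transcript in place of all exons, Hoxa9 at 24.3 CPM per kb came before Hoxa7 at 22.01. On that length Hoxa3 was at 3.90 and Hoxb2 at 1.83 CPM per kb, so the order depends on the length used. Both lengths are those of GENCODE M21, where 18 of the 39 Hox genes have the same coordinates as in the deposited table. Hoxa6 was divided by 874 bp on either length. It spans chr6:52205431-52211356 in the deposited table and chr6:52206288-52208722 in GENCODE M21. Hoxb4 starts at 96316684 in the former and 96318267 in the latter. The part of this in the levels per kb was not tested.

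Summed over the clusters, levels were lower in the lowest and highest paralog groups, and HoxA made 82.4% of that sum. HoxB alone differed: Hoxb5, Hoxb6 and Hoxb7 (0.689, 0.694 and 0.237 CPM per kb) lay below Hoxb3 (1.45) and Hoxb2 (0.852). Paralog groups 4 to 9 together took 86.9% of the summed Hox level per kilobase. Group 7 took 20.999%, group 6 took 19.4%, group 9 took 19.0%, and groups 5 and 4 took 13.7% each. Group 10 took 5.02% and group 11 took 0.015%. The step on the posterior side of HoxA was steep: Hoxa10 had 3599 counts over the 9 libraries and its neighbour Hoxa11, which lies 1253 bp further on, had 7.58. Group 8 took 0.074%, between groups 7 and 9. Hoxb8 was its main source, and HoxA has no gene of that number.

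Hoxa9, a posterior-type HoxA factor and leukaemia driver (ENSMUSG00000038227, chr6:52223100-52231089, minus strand), had the most Hox counts in all 9 libraries. It was at 69.0, 66.4, 88.4, 78.9 and 67.3 CPM in EV and 97.0, 93.3, 82.7 and 61.9 CPM in sgZrsr2. sgZrsr2 mice 1 and 2 were the highest and sgZrsr2 mouse 5 the lowest of all, so the groups overlapped. The means were 74.0 ± 9.45 CPM (SD, n = 5) and 83.7 ± 15.7 CPM (SD, n = 4), with an edgeR log2 fold change of 0.18 (SE 0.15, adjusted p = 0.765), or 0.0915 without sgZrsr2 mouse 1, 0.11 without sgZrsr2 mouse 2 and 0.30 without sgZrsr2 mouse 5. Hoxa7, its neighbour (ENSMUSG00000038236, chr6:52214491-52221854, minus strand), was at 47.8, 45.4, 42.4, 49.97 and 37.9 CPM in EV and 44.3, 46.7, 44.2 and 39.4 CPM in sgZrsr2. It was the steadiest of the tested genes, with a coefficient of variation of 8.74% over the 9 libraries and a highest value 1.32 times the lowest. The log2 fold change was -0.03 (SE 0.11, edgeR adjusted p = 0.945). The antisense gene Hoxaas3 covers 20.4% of its exon bases, so part of its reads cannot be told apart from that gene's. Hoxa10, the last expressed HoxA gene on the posterior side and a regulator of myeloid differentiation, was at 16.9, 8.53, 10.9, 9.86 and 10.5 CPM in EV and 14.9, 14.7, 12.1 and 7.48 CPM in sgZrsr2. EV mouse 1 was highest and sgZrsr2 mouse 5 lowest, and the log2 fold change was 0.11 (SE 0.26, edgeR adjusted p = 0.915).

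Hoxa5 and Hoxa6, of the middle of the cluster, were the 2 tested HoxA genes highest in EV mouse 3. Hoxa5 (ENSMUSG00000038253, chr6:52201754-52204587) was at 19.6, 16.5, 24.1, 18.5 and 15.5 CPM in EV and 17.9, 17.2, 19.8 and 11.2 CPM in sgZrsr2. The means were 18.8 ± 3.37 CPM (SD, n = 5) and 16.5 ± 3.72 CPM (SD, n = 4), and the log2 fold change was -0.19 (SE 0.20, edgeR adjusted p = 0.811). Its EV mouse 3 and sgZrsr2 mouse 5 values lay at the extremes and the others mixed. Hoxa6 (ENSMUSG00000043219, chr6:52205431-52211356) was at 13.4, 11.1, 16.6, 11.2 and 9.37 CPM in EV and 10.02, 12.3, 14.9 and 8.29 CPM in sgZrsr2. The log2 fold change was -0.12 (SE 0.22, edgeR adjusted p = 0.904). EV mouse 3 was again highest and sgZrsr2 mouse 5 lowest. Hoxa4 ran from 1.44 to 2.89 CPM in EV and from 2.003 to 2.80 CPM in sgZrsr2 (log2 fold change 0.10, SE 0.29, edgeR adjusted p = 0.934).

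Of the anterior HoxA genes, Hoxa2 had the smallest p of all Hox genes and did not pass the adjusted threshold. Hoxa2, best known for patterning the hindbrain and second pharyngeal arch (ENSMUSG00000014704, chr6:52162351-52165413, minus strand), was at 3.51, 2.03, 2.93, 2.22 and 2.41 CPM in EV and 4.36, 4.32, 5.89 and 3.26 CPM in sgZrsr2. Of the 4 sgZrsr2 libraries 3 lay above all of EV, and sgZrsr2 mouse 5 lay below EV mouse 1, so the groups overlapped. The means were 2.62 ± 0.600 CPM (SD, n = 5) and 4.46 ± 1.08 CPM (SD, n = 4), with a log2 fold change of 0.77 (SE 0.26, edgeR adjusted p = 0.714). Without sgZrsr2 mouse 3, the highest library and 1 of the 3 with high Car1, its log2 fold change was 0.60 and its unadjusted p no longer passed 0.05. In the reference annotation 15.04% of the exon bases of Hoxa2 are shared on the same strand with the read-through gene Gm28308, and its counts were whole in 1 of 9 libraries, so its value is uncertain. Hoxa3, a factor of pharyngeal and thymus development whose value is uncertain too, was at 12.7, 9.46, 5.83, 7.35 and 8.78 CPM in EV and 10.5, 9.76, 17.3 and 9.10 CPM in sgZrsr2. sgZrsr2 mouse 3 was highest and EV mouse 3 lowest, and the log2 fold change was 0.40 (SE 0.27, edgeR adjusted p = 0.736), or 0.15 without sgZrsr2 mouse 3. Of its exon bases 8.01% are shared on the same strand and 27.1% on either strand, most of them with antisense genes.

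**Figure D2:**
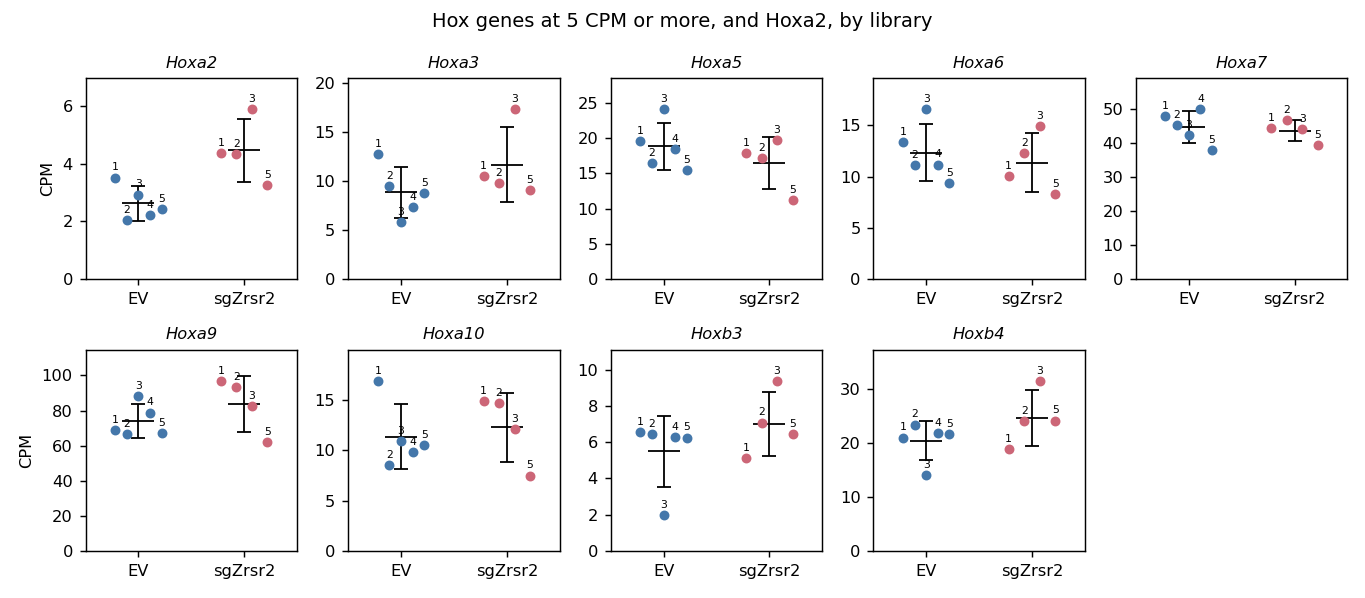
TMM-normalized CPM (linear axis from 0, 1 panel per gene) of the 8 Hox genes whose mean reached 5 CPM and of Hoxa2. Points are libraries numbered by mouse, and bars are the group mean ± 1 SD. The groups overlap in each panel, and EV mouse 3 lies apart and low at Hoxb3 and Hoxb4.

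The HoxB cluster (GRCm38, chr11:96194316-96368256) was led by Hoxb4, a factor that promotes stem cell self-renewal (ENSMUSG00000038692, chr11:96316684-96321638, plus strand). It was at 20.99, 23.4, 14.1, 21.9 and 21.6 CPM in EV and 18.9, 24.0, 31.5 and 24.2 CPM in sgZrsr2. EV mouse 3 was lowest and sgZrsr2 mouse 3 highest, and the other 7 lay between 18.9 and 24.2 CPM. The means were 20.4 ± 3.63 CPM (SD, n = 5) and 24.7 ± 5.19 CPM (SD, n = 4), and the log2 fold change was 0.27 (SE 0.19, edgeR adjusted p = 0.737), or 0.13 without sgZrsr2 mouse 3 and 0.16 without EV mouse 3. Hoxb3, its neighbour (ENSMUSG00000048763, chr11:96323326-96346685, plus strand), was at 6.54, 6.43, 1.964, 6.26 and 6.25 CPM in EV and 5.12, 7.08, 9.39 and 6.43 CPM in sgZrsr2. The same libraries were lowest and highest as for Hoxb4, and the log2 fold change was 0.35 (SE 0.34, edgeR adjusted p = 0.802), or 0.13 without EV mouse 3 and 0.18 without sgZrsr2 mouse 3. Of the exon bases of Hoxb3, 52.9% are shared with the antisense gene Hoxb3os, which was at 8.51 to 12.6 CPM in EV and 9.44 to 15.1 CPM in sgZrsr2. No strand setting is given in the sources used here, so reads of these genes cannot be told apart. EV mouse 3 had the lowest Hoxb3os value, 8.51 CPM, but EV mouse 5 was close at 8.58 CPM, with Hoxb3 there at 6.25 CPM. The stem cell gene Hlf was at 203, 169, 100.2, 95.6 and 173 CPM in EV and 125, 128, 257 and 118 CPM in sgZrsr2, and Kit, the stem cell factor receptor, at 247 CPM in EV mouse 3 and 632 CPM in sgZrsr2 mouse 3, the lowest and highest of the 9. Of the other LSK markers, Slamf1, Procr and Mecom were also higher in sgZrsr2 mouse 3 than in EV mouse 3. Cd34 (677 CPM in EV mouse 3 and 566 CPM in sgZrsr2 mouse 3), Flt3 (463 and 363 CPM) and Ly6a (39.4 and 26.7 CPM) were lower. This pair of libraries was the farthest apart over all genes (chi-square per degree of freedom 249). The part of these markers or of that distance in the Hoxb4 and Hoxb3 values was not tested.

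The remaining HoxB genes had at most 0.852 CPM per kb (Hoxb2) as a mean over the 9 libraries. Hoxb5, a marker of long-term stem cells, ran from 1.08 to 2.33 CPM in EV and from 1.34 to 3.11 CPM in sgZrsr2 (log2 fold change 0.38, SE 0.36, edgeR adjusted p = 0.802). Hoxb6 varied most in relation to its level among the tested genes of HoxA and HoxB with at least 1 CPM, with a coefficient of variation of 52.8% over the 9 libraries, a range of 0.508 to 1.63 CPM in EV and 0.835 to 2.55 CPM in sgZrsr2. Its log2 fold change was 0.71 (SE 0.47, edgeR adjusted p = 0.735). Hoxb2 ran from 1.68 to 3.87 CPM in EV and from 2.003 to 3.88 CPM in sgZrsr2 (log2 fold change -0.09, SE 0.31, edgeR adjusted p = 0.951). It shares 27.3% of its exon bases with Hoxb3os. Hoxb7 was at 0.156 to 0.533 CPM in all 9 libraries (log2 fold change 0.18, SE 0.46, edgeR adjusted p = 0.924). Hoxb2, Hoxb5 and Hoxb6 overlapped between the groups. Hoxb9, on the posterior side, had 0 to 11 counts per library, Hoxb1 had 2 counts in 1 library, and Hoxb13, which lies 74009 bp from Hoxb9, had 0 in all 9.

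None of the 15 tested Hox genes differed between sgZrsr2 and EV at an adjusted p of 0.05. This was 0 of 15 with edgeR, with a smallest adjusted p of 0.714, and 0 with DESeq2 and limma-voom, and edgeR called 0% of the 14944 genes tested. At an unadjusted p under 0.05 edgeR gave 1 of 15, Hoxa2, against 6.85% of all genes tested (3.87% higher and 2.98% lower with sgZrsr2). DESeq2 gave 1 at that level (1274 of all genes) and limma-voom with sample quality weights 4 (2551 of all genes). No tested Hox gene had groups that did not overlap, against 3.06% of all genes (1.75% higher and 1.32% lower). The log2 fold change was above 0 for 10 of the 15 and below 0 for 5, where 51.5% of all genes were below 0. The median over the 15 was 0.18 against -0.01 over all genes. It was 0.11 over the 8 HoxA genes and 0.31 over the 6 HoxB genes, and Hoxc6 was the only tested HoxC gene. The median SE was 0.27 over the 15 genes and 0.21 over the 8 with at least 5 CPM. The 24 members not tested were 13 at 0 in all 9 libraries and 11 with too few counts, so these counts cover the expressed members only.

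**Figure D3:**
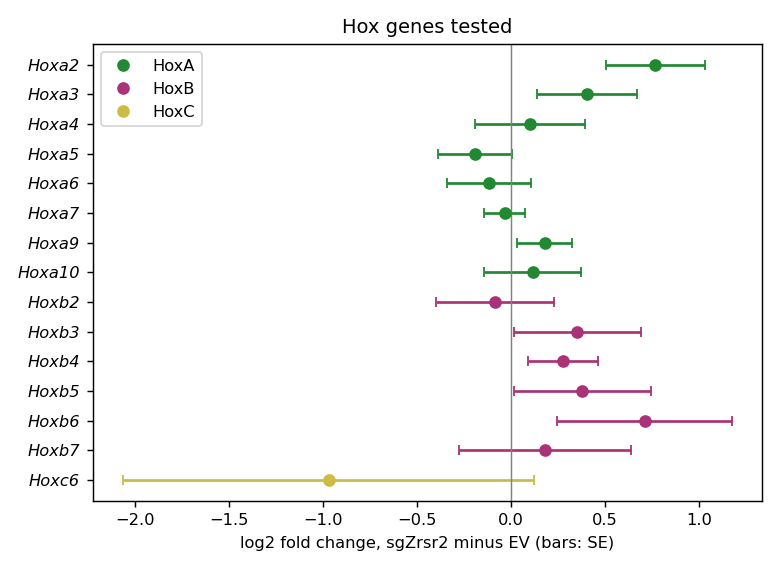
Log2 fold change (sgZrsr2 minus EV, edgeR) of the 15 tested Hox genes, coloured by cluster, with bars of 1 SE. Hoxa2 lies farthest above 0 at 0.77, Hoxc6 has the widest bar, and no gene passes an adjusted p of 0.05.

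The extreme libraries of the 15 tested genes were these. sgZrsr2 mouse 3 was the highest library for 6 of the 15 tested genes (Hoxa2, Hoxa3, Hoxb3, Hoxb4, Hoxb5 and Hoxb6), all of low to middle number. sgZrsr2 mouse 5, of the same group and also high in Car1, was the lowest for 4 (Hoxa5, Hoxa6, Hoxa9 and Hoxa10), all HoxA. EV mouse 3 was the lowest for Hoxa3, Hoxb3, Hoxb4 and Hoxb7, level at 0 with sgZrsr2 mice 1 and 2 for Hoxc6, and the highest for Hoxa5 and Hoxa6. EV mouse 2 was the lowest for 4 (Hoxa2, Hoxb2, Hoxb5 and Hoxb6). With the 3 libraries high in Car1 left out, an alternative chosen after seeing the data, the groups of 4 and 2 did not overlap for Hoxa2 and Hoxa9. These were 2 of 16 Hox genes tested, against 23.2% of all genes in that setting. No Hox gene had an unadjusted p under 0.05 there, against 11% of all genes.

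The HoxC genes (GRCm38, chr15:102921103-103036843) were scarce and uneven. Of the 280 counts of the cluster over the 9 libraries, 153 lay in EV mouse 1, 41 in EV mouse 2 and none in sgZrsr2 mouse 2. Hoxc10, a posterior gene, had 58, 17, 3, 0 and 0 counts in the 5 EV libraries and 2, 0, 0 and 0 in sgZrsr2. EV mouse 1 held 1.67 CPM and EV mouse 2 held 0.376 CPM. Hoxc9 had 24 and 8 counts in the same pair, 1 in EV mouse 5, 5 in sgZrsr2 mouse 1 and 0 in the others. Hoxc4 had 38 counts in EV mouse 1, at most 3 in the other EV libraries and 6, 0, 12 and 6 in sgZrsr2. Hoxc6, the only HoxC gene tested, had 20, 14, 0, 3 and 18 counts in EV and 0, 0, 13 and 8 in sgZrsr2 (log2 fold change -0.97, SE 1.09, edgeR adjusted p = 0.827). This value was not stable: it ran from -1.74 to -0.62 in the 6 fits without 1 library in which the gene passed the filter. Hoxc5 had 9 counts in EV mouse 1 and at most 3 elsewhere, Hoxc8 had 4 there and 1 in sgZrsr2 mouse 3, and Hoxc11, Hoxc12 and Hoxc13 were at 0 in all 9. EV mouse 1, which was highest for 6 of these genes and for Hoxa10, also had the highest B cell marker: Ebf1, an early B cell factor, was at 9.24 CPM against at most 2.34 CPM. The 6 lymphoid markers summed to 327 CPM there and to 278 CPM in EV mouse 2, the highest of the 9. The part of B cells in the HoxC values was not tested.

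A second uneven gene was Hoxb8, known for its use in immortalizing myeloid progenitors (chr11:96281905-96285325, plus strand). It had 41.8 counts (1.02 CPM) in sgZrsr2 mouse 3 and no more than 2.33 counts (0.0582 CPM) in any other library. It did not pass the filter on low counts. That library also held the most S100a9, a neutrophil alarmin, at 56.9 CPM, and Ngp, a neutrophil granule gene, at 53.2 CPM. EV mouse 5 had 49.5 and 43.0 CPM of these and 2.33 counts of Hoxb8. The part of neutrophils in the Hoxb8 counts was not tested. Hoxa11 had 4, 0, 1.58, 2 and 0 counts in EV and 0 in all of sgZrsr2, and Hoxa13 had 1 count in EV mouse 3.

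**Figure D4:**
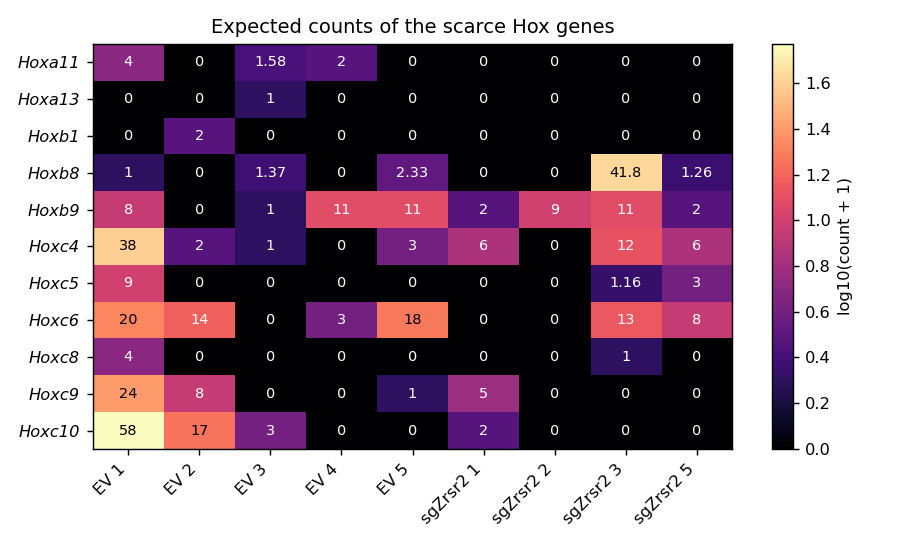
Expected counts of the scarce Hox genes (rows) in each library (columns), printed in each cell and coloured by log10(count + 1). The HoxC counts lie mainly in EV mouse 1, with 58 for Hoxc10, and Hoxb8 reaches 41.8 in sgZrsr2 mouse 3 alone.

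Of the Hox cofactors, Meis1, which binds DNA with Hoxa9 and Pbx proteins, did not overlap between the groups. It was at 138, 118, 127, 112 and 136 CPM in EV and 150.1, 144, 169.6 and 142 CPM in sgZrsr2, every sgZrsr2 library lying above every EV library. The means were 126 ± 11.4 CPM (SD, n = 5) and 151 ± 12.7 CPM (SD, n = 4), with a log2 fold change of 0.26 (SE 0.10, edgeR adjusted p = 0.714). Of the 9 cofactors listed (Meis, Pbx and Pknox genes) 7 were tested. None passed the adjusted threshold, and Meis1 and Pbx4 (0.48, SE 0.17) had an unadjusted p under 0.05, both higher with sgZrsr2, where 6.85% of all genes had such a p (3.87% higher). Meis1 alone of the 7 had groups that did not overlap, against 3.06% of all genes. The median log2 fold change of the 7 was 0.07. The Cdx factors, which act upstream of Hox genes in the embryo, summed to at most 0.156 CPM, with Cdx4 at 0 in all 9 libraries.

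The genes listed as keeping Hox clusters active or silent had small differences in both directions. Of 27 genes on the activator list, all tested, 0 passed the adjusted threshold. The log2 fold change was above 0 for 19 and below 0 for 8, and the median was 0.08. The list held genes of trithorax, Mll and elongation complexes, and also others such as Npm1, Nup98, Ctcf, Usf1 and Usf2. An unadjusted p under 0.05 was found for Kmt2c (0.54, SE 0.16), Kmt2d (0.35, SE 0.15) and Aff1 (0.34, SE 0.12), 3 of 27 and all higher with sgZrsr2, against 6.85% of all genes (3.87% higher), each at an edgeR adjusted p of 0.714. Kmt2c, a histone methyltransferase of enhancers, was at 135 ± 23.5 CPM (SD, n = 5) and 197 ± 31.7 CPM (SD, n = 4), and was the 1 activator gene with no overlap, against 3.06% of all genes. Kmt2a (Mll1), the methyltransferase that binds the HoxA cluster, was at 330, 306, 146, 178 and 354 CPM in EV and 279, 275, 513 and 360.0 CPM in sgZrsr2, with EV mouse 3 lowest and sgZrsr2 mouse 3 highest as for Hoxb3 and Hoxb4 (log2 fold change 0.44, SE 0.28, edgeR adjusted p = 0.734). It was 0.21 without sgZrsr2 mouse 3 and 0.29 without EV mouse 3. EV mouse 3 and sgZrsr2 mouse 3 were also the libraries farthest apart over all genes (chi-square per degree of freedom 249). They had the lowest and highest TMM factors (0.894 and 1.07), and the part of this in the Kmt2a values was not tested. Menin (Men1), the partner of Kmt2a, had a log2 fold change of -0.03 (SE 0.16). Of 34 genes on the Polycomb list, all tested, 0 passed the adjusted threshold, with 23 above 0 and 11 below and a median of 0.09. The list also held Kdm6a and Kdm6b, demethylases that remove the repressive mark instead of setting it. Ezh2, the methyltransferase of the repressive complex, was at 168, 159, 134, 162 and 159 CPM in EV and 96.7, 93.5, 126 and 146 CPM in sgZrsr2. Only sgZrsr2 mouse 5 overlapped EV, and the log2 fold change was -0.44 (SE 0.15, edgeR adjusted p = 0.714). Pcgf3, Phc1 and Kdm6a had log2 fold changes of 0.29 (SE 0.11), 0.30 (SE 0.11) and 0.34 (SE 0.15), and with Ezh2 they were the 4 of 34 with an unadjusted p under 0.05 (3 higher, 1 lower), against 6.85% of all genes. The groups did not overlap for Pcgf3 and Phc1, 2 of 34, against 3.06% of all genes. Bmi1 had a log2 fold change of -0.20 (SE 0.14).

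**Figure D5:**
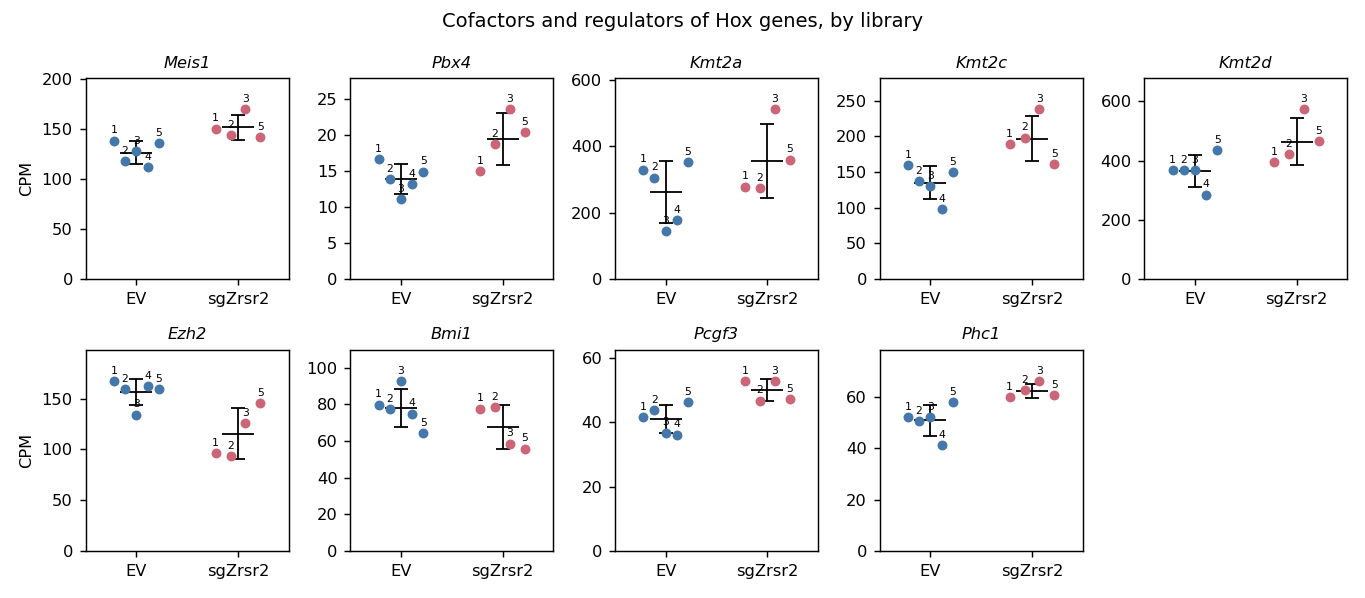
TMM-normalized CPM (linear axis from 0) of 2 Hox cofactors, 3 activator and 4 Polycomb genes. Points are libraries numbered by mouse, and bars are the group mean ± 1 SD. Meis1, Kmt2c, Pcgf3 and Phc1 lie higher in every sgZrsr2 library than in any EV library, and the other panels overlap.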

How the data were processed

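The values were RSEM expected counts per gene, which the authors deposited as 1 table with a column per library and no normalization. The submitters' processing notes name cutadapt 1.11, RSEM 1.2.30 and the genome build GRCm38. RNA (5 ng per library) was polyA-selected, per the labels' protocols, then made into libraries with a NEBNext Ultra II kit and enriched by PCR. The aligner, gene annotation and strand setting are not given in the sources used here. PCR reads without molecular identifiers are not independent molecules, so limits from counts cover counting error only.

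Counts were rounded, filtered with filterByExpr (minimum count 10, minimum total 15, which kept 14944 genes) and scaled by TMM factors of 0.894 to 1.07. Groups were compared with edgeR 4.0.16 (glmQLFit and glmQLFTest, R 4.3.3), adjusting p-values over all tested genes by Benjamini-Hochberg. Alternatives used DESeq2 1.42.0, limma 3.58.1, other scalings, filters and sets of libraries. Of the 39 Hox rows, 38 identifiers were in GENCODE M21 and 1 (Hoxd4) was matched by symbol. Gene and cluster coordinates are those of the deposited table. Exon lengths and homeobox stretches came from GENCODE M21 and promoters from RefSeq (GRCm38.p6). The rule for named genes was that values in every library are given for Hox genes whose mean reached 5 CPM, an unadjusted p under 0.05 or groups that do not overlap, and of the lists for Meis1, Kmt2a, Men1, Ezh2, Bmi1, Cdx4 and any gene with such a p or separation, of which several are given by mean or log2 fold change. Other genes were named after their values were seen. The members, lists and rules were chosen with earlier results of these data known, and the lists were written from general knowledge. Some items are not reported here.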

Additional observations from a re-analysis of the deposited data

Results flagged for a closer look

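In 30 sets of libraries of 1 group and 1 tested Hox gene, Dixon's gap test at the 95% level picked out 3, where chance gives about 1.5. Hoxb3 was at 1.964 CPM in EV mouse 3 and at 6.25 to 6.54 CPM in the other 4 EV libraries. Hoxb4, the neighbouring gene, was at 14.1 CPM in the same library and at 20.99 to 23.4 CPM in the others. Hoxa10 was at 16.9 CPM in EV mouse 1 and at 8.53 to 10.9 CPM in the other EV libraries. EV mouse 3 had the lowest TMM factor, 0.894, and EV mouse 1 the most HoxC counts, 153. The part of either in these values was not tested.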

How the results depend on the processing

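Each of the 12 alternatives and each of the 9 fits without 1 library gave 0 Hox genes past the adjusted threshold. Over all genes DESeq2 called 16, the fit with sgZrsr2 mice 1 and 2 averaged called 1, and the other settings 0. Hox genes with an unadjusted p under 0.05 numbered 4 with no expression filter, where 6.03% of all genes had such a p. They were Hoxa2, Hoxa11, Hoxb8 and Hoxc10, of 26 Hox genes tested, and Hoxa11, Hoxb8 and Hoxc10 were scarce. With limma-voom there were 4 (Hoxa2, Hoxa9, Hoxb6 and Hoxc6, against 17.1% of all genes). There were 0 with the 3 libraries high in Car1 left out (11% of all genes). Without 1 library there were 0 to 2: 0 without sgZrsr2 mouse 3 (4.94% of all genes), and 2, Hoxa2 and Hoxa9, without sgZrsr2 mouse 5 (7.58% of all genes). Hox genes with separate groups numbered 2 without the 3 libraries high in Car1, where 23.2% of all genes were separate, and 0 to 1 without 1 library (3.58% to 7.10% of all genes), with Hoxa2 separate without EV mouse 1 or sgZrsr2 mouse 5 and Hoxb4 without sgZrsr2 mouse 1. Without 1 library 14 to 17 Hox genes passed the filter. Their median log2 fold change was -0.03 with no filter, with more scarce genes tested, and 0.06 (without sgZrsr2 mouse 2) to 0.35 (without sgZrsr2 mouse 1) without 1 library, with 0.28 without EV mouse 1 and 0.29 without sgZrsr2 mouse 5.

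With limma-voom the log2 fold change was 0.128 for Hoxa3, 0.0797 for Hoxb3, 0.0672 for Hoxb4, 0.0358 for Kmt2a and -2.99 for Hoxc6, which was at -6.03 without the 3 libraries high in Car1. Without 1 library Hoxa5 was at -0.29 to -0.0432, Hoxa10 at 0.0032 to 0.30, Hoxb5 at 0.16 to 0.55 and Hoxb6 at 0.46 to 0.94. The sign of genes near 0 turned. Hoxb2 was at 0.31 with limma-voom, at 0.0566 without the 3 libraries high in Car1 and at -0.27 to 0.0398 without 1 library. Men1 was at 0.0272 with sgZrsr2 mice 1 and 2 averaged and at -0.12 to 0.0451 without 1 library. Without 1 library Hoxa4 was at -0.0120 to 0.23, Hoxa6 at -0.27 to 0.00864, Hoxa7 at -0.0876 to 0.0101 and Hoxb7 at -0.00299 to 0.394. The cause was not tested. Hoxa2 stayed between 0.60 and 0.89 in all settings run. Its adjusted p was 0.178 with limma-voom, 0.288 with DESeq2 and 0.9998 with the replicate block.

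The labels do not say whether the mouse numbers pair the libraries. Correlations of same-numbered deviations from the group mean were -0.23, -0.09, -0.40 and 0.37, and 1 of 4 sgZrsr2 libraries correlated best with its own number. So few correlations cannot settle whether the numbers pair animals. With the replicate block, EV mouse 4 has no partner and drops out of the contrast. In that fit 0 Hox genes had an unadjusted p under 0.05, against 2.28% of all genes. The median log2 fold change was 0.26 and Hoxa7 was at 0.0115. Depth limits the 11 scarce members, at 1 to 58 counts where detected.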
